A study of Rattus norvegicus with 15 samples.

Results

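Transcripts of 50 rat liver genes for acute phase, complement and coagulation proteins were followed under 3 diets. A gene counted as measured where the array annotation gave a probe set its symbol and no other, and the probe set with the highest mean over the 15 arrays stood for the gene. This held for 44 of the 50 genes, among 14218 genes measured in this way in all, with Cd59 found under its current symbol Cd59b. Tf, C2, Cfb and Kng1 lay only in probe sets naming several genes, and these 4 were not analysed here, nor were F7 and F11. Of the 44 genes, 43 passed a filter on low values and were tested, and the complement regulator Cd55 did not pass.

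The animals were male Sprague-Dawley rats, aged 4 weeks on arrival and adapted for 5 days. For 14 days they then received genistein at 2 g/kg of diet, daidzein at 2 g/kg of diet, or the same base diet without isoflavone as control, and each of the 3 diets gave 5 liver arrays. The base diet of every group held casein (200 g/kg) and palm oil (100 g/kg). Genistein and daidzein are soy isoflavones with the same ring system, and genistein has an additional hydroxyl group. The titles call the arrays of a diet biological replicates and number them 1 to 5, and values below follow that numbering, although the descriptions give 9 of the 15 arrays another number.

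Hepatocytes make most plasma proteins. In the acute phase response, cytokines such as interleukin-6 and interleukin-1 act on hepatocytes, so that positive acute phase transcripts increase and negative ones, such as that of albumin, decrease. In the rat, alpha-2-macroglobulin and alpha-1-acid glycoprotein are classical positive proteins, whereas C-reactive protein is already abundant in the plasma of healthy rats. Complement is a cascade of plasma proteases and pore-forming proteins held in check by regulators, and coagulation is a protease cascade that ends in fibrin, with its own inhibitors and a fibrinolytic arm.

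Levels are log2 units rebuilt from the authors' deposited scores after quantile normalization, approximately the log2 of an inferred intensity whose background correction is not stated. Probe sets differ in their response, so no gene's level is set against another's. Hepatocyte markers were all detected: the mean level of 8 such genes ran from 12.06 to 12.25 on genistein arrays, from 12.13 to 12.25 on daidzein arrays and from 12.24 to 12.44 on control arrays, and none of the 8 was called in any comparison. At an unadjusted limma p under 0.05, 2 of the 8 were lower and 0 higher with genistein against control, or 25% beside 11% of all probe sets. With daidzein against control 1 was lower and 0 higher, or 12.5% beside 8.25%, and between the isoflavones 0% beside 9.37%. The 8 measured Kupffer cell and macrophage markers, of 10 listed, averaged 8.30 to 8.82 with genistein, 8.11 to 8.60 with daidzein and 8.45 to 8.79 with control. Of 10 listed leukocyte markers 8 were measured and 6 passed the filter on low values. These 6 averaged 5.75 to 6.17, 5.75 to 6.50 and 5.89 to 6.29 on genistein, daidzein and control arrays. The 7 stellate cell markers averaged 6.49 to 6.66, 6.35 to 6.49 and 6.57 to 6.74 in the same order of diets. In this mean all daidzein arrays lay below all control arrays. The 5 measured sinusoidal endothelium markers, of 6 listed, averaged 7.36 to 7.82, 7.40 to 7.65 and 7.29 to 7.78. The 1 cholangiocyte marker that passed the filter, of 4 listed, ran from 5.57 to 6.16, 6.00 to 6.21 and 6.01 to 6.75. No marker of these lists was called, and their part in the results below was not tested. In whole liver RNA, fewer cells of a type and less RNA per cell cannot be told apart.

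In genistein against control, 1 of the 43 tested transcripts was called lower, that of the complement regulator Cd46, and none was called higher. Cd46 passed the filter on low values only through its daidzein and control arrays, and with no filter its adjusted p was 0.0417. Among all 18625 probe sets tested 0.172% were called lower and 0.15% higher, 0.322% in either direction (limma, Benjamini-Hochberg adjusted p under 0.05). With daidzein against control none of the 43 was called, and 0.0161% of all probe sets were, each of them higher, and 0% lower. None of the 43 was called between genistein and daidzein, where 0.0322% of all probe sets were called higher and 0.0805% lower, 0.113% in either direction. At an unadjusted limma p under 0.05 there were 3 higher and 4 lower members with genistein, 2 higher and 2 lower with daidzein, and 4 higher and 4 lower with genistein relative to daidzein. These counts are 16.3%, 9.30% and 18.6% of the members, and the same shares over all probe sets were 11%, 8.25% and 9.37%.

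The median log2 change of the 43 transcripts was 0.00 for genistein against control, -0.02 for daidzein against control and 0.03 for genistein against daidzein, and the medians over all probe sets tested were 0.00 in each comparison. With genistein 21 members lay above control and 21 below. With daidzein 18 lay above control and 24 below, and relative to daidzein 24 were above and 18 below with genistein. Albumin stood at the same value on every array and is in neither count. Over all probe sets tested the shares above and below 0 were 50% and 50%, 50.1% and 49.9%, and 50.2% and 49.8%. These splits depend on the scaling. With arrays centred on their medians in place of quantile normalization they were 27 above and 16 below, 31 and 12, and 19 and 24, in the same order of comparisons. With the scores as deposited they were 20 and 23, 31 and 12, and 19 and 24. With each array on its own scale factor and centred on its median they were 11 and 32, 20 and 23, and 14 and 29.

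For most members the intervals were narrow after quantile normalization, which compresses differences between arrays in the brightest members. They were not counted under other scalings. Among the 42 members other than albumin, the 95% confidence interval of the change lay within 1.5-fold either way for 39 with genistein against control, 37 with daidzein against control and 39 between the isoflavones. Within 2-fold it lay for 40 in each comparison. The members whose intervals reached beyond 1.5-fold were Orm1, Lcn2 and Cd46 with genistein, Orm1, Lcn2, C6, Cd46 and F9 with daidzein, and Lcn2, C6 and Cd46 between the isoflavones.

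**Figure D1:**
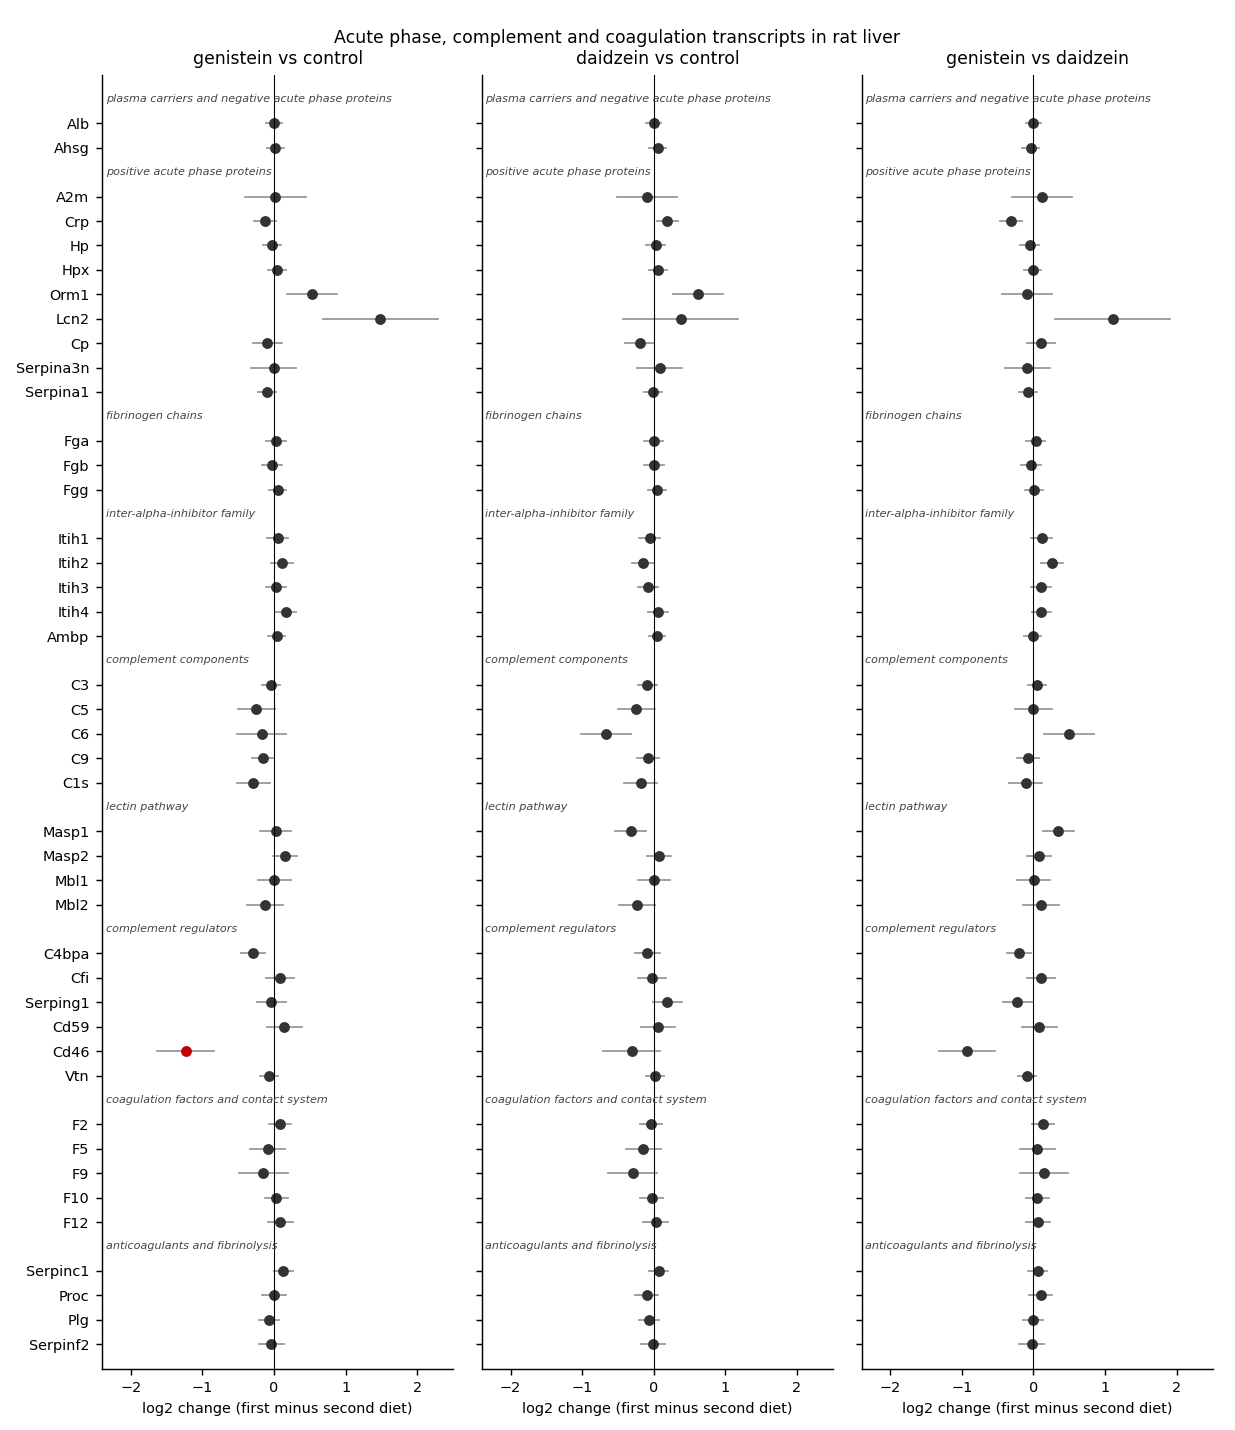
Log2 change (horizontal axis) of each of the 43 tested members in the 3 comparisons, with the first-named diet minus the second; points are limma estimates and lines their 95% confidence intervals. The red point is Cd46 in genistein against control (-1.23), the only member called, and the albumin point is fixed at 0 by the normalization.

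The plasma carriers among the members were Alb, which encodes albumin, and Ahsg, which encodes the negative acute phase protein fetuin-A. Alb was the brightest probe set on all 15 arrays, and quantile normalization gives the brightest probe set 1 common value, here 14.59, so that its change was 0 by construction. With median centring in its place the log2 change of Alb was 0.03 with genistein, 0.05 with daidzein and -0.02 between them, with limma adjusted p of 0.996, 0.995 and 1.00. Of all members, 12 ranked within the 51 brightest probe sets on every array, and their differences between arrays are likewise compressed by quantile normalization. They were Alb, Ahsg, Hp, Hpx, Serpina1, Fga, Fgb, Fgg, Itih3, Ambp, C3 and Vtn, and their small changes given below carry this limit. Ahsg, 1 of these 12, had log2 changes of 0.02 with genistein and 0.06 with daidzein against control.

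Among the 9 positive acute phase transcripts the largest change belonged to Lcn2, which encodes lipocalin-2, a siderophore-binding protein. Lcn2 (probe set 1387011_at) had levels of 8.59, 7.10, 8.23, 7.80 and 6.51 on genistein arrays, 6.48, 6.98, 6.74, 6.68 and 5.82 on daidzein arrays and 5.66, 6.92, 5.50, 6.13 and 6.60 on control arrays. Of the genistein arrays, 4 lay above every control array and genistein 5 lay among the controls, so the diets overlapped. The mean was 7.65 ± 0.84 with genistein and 6.16 ± 0.60 with control (SD, n = 5 each), a 2.80-fold difference (log2 change 1.48 ± 0.38 SE) that was not called (limma adjusted p = 0.119). The log2 change was 0.38 with daidzein against control (adjusted p = 0.830) and 1.11 with genistein against daidzein (0.326). Over 45 settings of the processing the change with genistein against control ran from 1.25 to 1.76, and Lcn2 was called in none of them. The lowest control levels lay not far above the filter level of 5.00, where signal over background limits what can be seen. Lcn2 had the largest spread of the tested members between rats on 1 diet, with a within-diet SD of 0.65.

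Orm1 encodes alpha-1-acid glycoprotein, a drug-binding plasma protein. Orm1 (1368731_at) stood at 12.69, 12.81, 12.03, 12.51 and 12.70 with genistein, at 12.66, 12.68, 12.67, 12.63 and 12.55 with daidzein and at 11.98, 12.52, 11.86, 12.16 and 11.59 with control. All 5 daidzein arrays lay above all 5 control arrays, and the genistein arrays overlapped the controls at genistein 3 and, narrowly, genistein 4. The daidzein mean of 12.64 ± 0.05 was 1.54-fold above the control mean of 12.02 ± 0.35 (SD, n = 5 each; log2 change 0.62 ± 0.16 SE), without being called (limma adjusted p = 0.346). With genistein the log2 change was 0.53 ± 0.16 (SE, adjusted p = 0.210), and between the isoflavones it was -0.09 with a 95% interval from -0.44 to 0.26.

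Crp encodes C-reactive protein, a phosphocholine-binding pentraxin. Its levels (1387830_at) were 12.75, 12.88, 12.87, 12.89 and 12.75 with genistein, 13.20, 13.07, 13.17, 13.20 and 13.07 with daidzein and 13.03, 12.99, 12.78, 12.89 and 13.06 with control. Every daidzein array lay above every genistein array and every control array, with daidzein 2 and control 5 almost level, and genistein and control overlapped. Genistein was 1.24-fold below daidzein (log2 change -0.31 ± 0.07 SE, limma adjusted p = 0.0943), and this was not called. Against control the log2 changes were -0.12 with genistein (adjusted p = 0.571) and 0.19 with daidzein (0.496). With the filter on low values raised to the 60th percentile, so that fewer probe sets were tested, the adjusted p of genistein against daidzein was 0.0491.

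A2m encodes alpha-2-macroglobulin, a protease trap known to be scarce in adult rat liver outside inflammation. A2m (1367794_at) lay between 5.28 and 6.32 with genistein, between 5.35 and 5.91 with daidzein and between 5.30 and 6.15 with control. The 3 ranges overlap almost wholly, and the log2 change was 0.02 with genistein (95% interval -0.40 to 0.44) and -0.10 with daidzein (-0.52 to 0.32). Its within-diet SD of 0.33 was second among tested members to that of Lcn2. Serpina3n, a serine protease inhibitor of the acute phase, had log2 changes of -0.01 and 0.08 with genistein and daidzein against control. Hp, which encodes the haemoglobin-binding haptoglobin, had -0.03 and 0.02, and Serpina1, which encodes alpha-1-antitrypsin, had -0.09 and -0.02. Hpx, which encodes the haem carrier hemopexin, had 0.04 and 0.05, and Cp, which encodes the copper-carrying ferroxidase ceruloplasmin, had -0.09 and -0.20. None of the 9 transcripts of this group was called in any comparison.

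**Figure D2:**
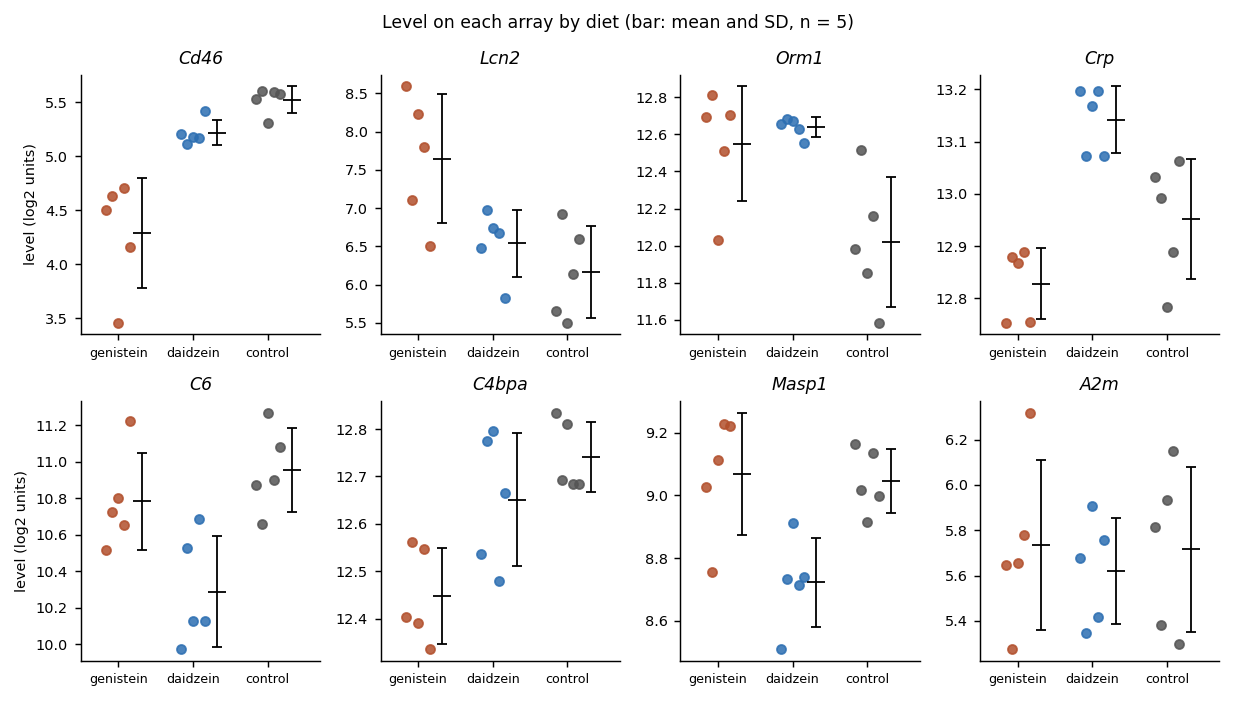
Level (log2 units, vertical axis, its own range in each panel) of 8 members on each of the 5 arrays per diet, with genistein left, daidzein in the middle and control right; bars are mean and SD. Cd46 is lowest on all 5 genistein arrays, Orm1 and Crp are above control on all 5 daidzein arrays, and A2m overlaps across the diets.

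The 3 fibrinogen chains, whose products form the clottable plasma protein, differed little between diets after quantile normalization, which compresses differences in these bright probe sets. The log2 changes of Fga, Fgb and Fgg were 0.03, -0.03 and 0.05 with genistein against control, and -0.00, 0.01 and 0.05 with daidzein against control. The 95% interval of Fgb with genistein, for example, ran from -0.17 to 0.11. The within-diet SD, compressed in the same way, was 0.07 for Fga, 0.07 for Fgb and 0.05 for Fgg. Second probe sets of Fga and Fgb had changes of the opposite sign with genistein (-0.08 and 0.07), and none was called. With median centring in place of quantile normalization, the median change of the 3 chains against control was 0.07 with genistein and 0.15 with daidzein. With each array on its own scale factor and median centred, these medians were -0.05 and 0.07.

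Whether the chains vary together between rats on 1 diet was asked over the 15 arrays, after each diet's mean was removed, in a family of 6 pairs of members. The Pearson r was -0.293 for Fga with Fgb (permutation p = 0.329, adjusted 0.658; Spearman rho -0.324, p = 0.265, adjusted 0.529). It was 0.469 for Fga with Fgg (permutation p = 0.118, adjusted 0.355; rho 0.436, p = 0.131, adjusted 0.394) and -0.0238 for Fgb with Fgg (permutation p = 0.937, adjusted 0.946; rho -0.0787, p = 0.794, adjusted 0.794). Without the 2 arrays farthest from the median of the first gene, r was 0.0285, 0.462 and 0.0711. No pair of chains passed. The r of Fga with Fgb ran from -0.504, without daidzein 3, to -0.0841, without genistein 4.

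This result turned on the normalization. With median centring the same 3 pairs had r of 0.946, 0.984 and 0.933 (permutation adjusted p = 2e-04, 6e-05 and 2e-04), and with the scores as deposited 0.905, 0.973 and 0.886. The 12 members among the brightest probe sets all behaved so: over their 66 pairs the median r was 0.964 with median centring (lowest 0.843), and Alb with Fgg had 0.986. With quantile normalization the median over the 55 pairs without Alb was -0.0302. With median centring, control 1 lay lowest for each chain, by 0.49 to 0.64 below its diet's mean, and the scale factor of control 1 was the highest of the 15 arrays. With each array on its own scale factor and median centred, an alternative chosen after seeing the data, r of the 3 pairs was 0.790, 0.961 and 0.739.

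**Figure D3:**
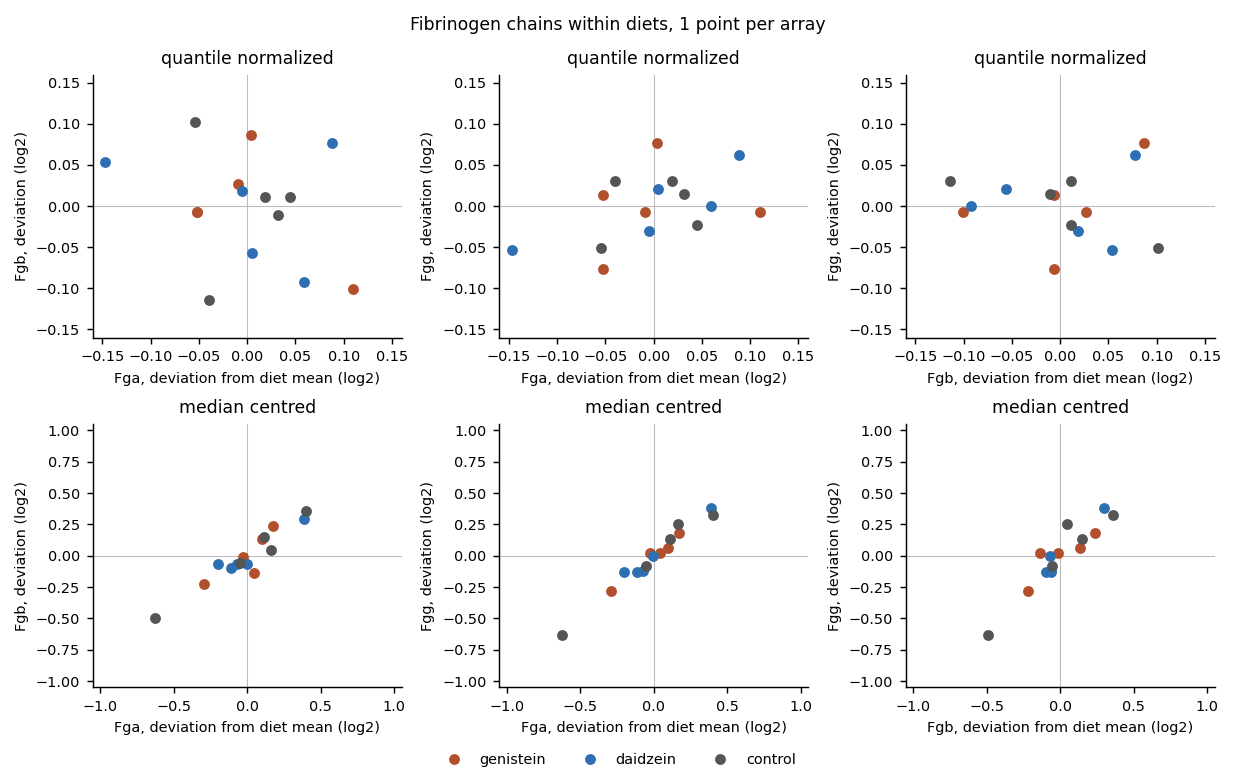
Deviation of each array from its diet's mean (log2) for the 3 pairs of fibrinogen chains, coloured by diet, with quantile normalization in the upper row and median centring in the lower row (with wider axes). The upper pairs have r from -0.293 to 0.469 and the lower pairs from 0.933 to 0.984, with control 1 at the lower left.

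The other 3 pairs set A2m, whose levels lay not far above the filter level, against further acute phase transcripts. A2m with Lcn2 had r of -0.530 (permutation p = 0.0824, adjusted 0.355; rho -0.521, p = 0.0740, adjusted 0.394), and without the 2 farthest arrays -0.595. A2m with Serpina3n had r of -0.120 (permutation p = 0.696, adjusted 0.946; rho -0.104, p = 0.736, adjusted 0.794) and A2m with Orm1 0.0220 (permutation p = 0.946, adjusted 0.946; rho -0.0893, p = 0.782, adjusted 0.794), or 0.122 and 0.0637 without the 2 farthest arrays. None of these 3 pairs passed, and pairs among Lcn2, Serpina3n and Orm1 were not tested. The r of A2m with Lcn2 ran from -0.756 (adjusted permutation p = 0.0567), without genistein 2, to -0.308, without genistein 5.

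The inter-alpha-inhibitor family members were the heavy chain genes Itih1, Itih2, Itih3 and Itih4 and Ambp, which encodes the precursor of the light chain bikunin, a protease inhibitor. With genistein all 5 had log2 changes above 0 relative to control, from 0.03 to 0.17 with a median of 0.05, and none was called. With each array on its own scale factor and median centred, 2 of the 5 were above 0. Itih4 (1368707_at) had levels of 13.23, 13.11, 13.15, 13.14 and 13.15 with genistein, 13.05, 13.09, 13.09, 13.05 and 12.95 with daidzein and 12.97, 12.90, 12.89, 13.11 and 13.07 with control. The genistein arrays lay above all daidzein arrays and met the control arrays only at control 4. Its log2 change was 0.17 ± 0.06 with genistein (SE, limma adjusted p = 0.343), and 0.11 between the isoflavones (adjusted p = 0.657). With the own scale factors and median centring these became 0.09 (adjusted p = 0.895) and -0.00.

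Itih2 (1391806_at) stood at 12.21, 12.24, 12.28, 12.03 and 12.09 with genistein, 11.82, 11.92, 11.85, 12.05 and 11.91 with daidzein and 12.11, 11.93, 12.06, 12.03 and 12.15 with control. Only daidzein 4 reached into the genistein range, by a narrow margin. The log2 change of genistein against daidzein was 0.26 ± 0.07 (SE, limma adjusted p = 0.191). With daidzein against control Itih4 and Ambp were above 0 (0.06 and 0.05) and Itih1, Itih2 and Itih3 below (-0.06, -0.15 and -0.08), and with median centring 4 were above and 1 below.

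The 5 measured complement components were C1s, a protease of the classical pathway, C3, the central component that is cleaved on activation, and C5, C6 and C9, which lead to or form the membrane attack complex. All 5 had log2 changes below 0 with either isoflavone: from -0.29 to -0.04 with genistein (median -0.17) and from -0.67 to -0.08 with daidzein (median -0.18). None was called, and both comparisons share the control arrays. With median centring 4 of 5 were below 0 with genistein and 3 of 5 with daidzein.

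C6 (1384580_at) had levels of 10.52, 10.72, 10.80, 10.65 and 11.22 with genistein, 9.97, 10.53, 10.13, 10.69 and 10.13 with daidzein and 10.87, 10.66, 11.27, 10.90 and 11.08 with control. Of the daidzein arrays 4 lay below every control array, and daidzein 4 reached into the control range. The daidzein mean of 10.29 ± 0.30 was 1.59-fold below the control mean of 10.96 ± 0.23 (SD, n = 5 each; log2 change -0.67 ± 0.16 SE, limma adjusted p = 0.306), and C6 was not called. With genistein against control the change was -0.17 (adjusted p = 0.770), and with genistein against daidzein 0.49 ± 0.16 (SE, adjusted p = 0.288).

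C1s (1387893_at) had levels of 11.03, 11.18, 11.05, 11.25 and 11.07 with genistein, 11.12, 11.22, 11.14, 11.15 and 11.50 with daidzein and 11.05, 11.50, 11.41, 11.66 and 11.40 with control. Apart from control 1, the controls lay above all genistein arrays. The log2 change was -0.29 ± 0.11 with genistein (SE, limma adjusted p = 0.324) and -0.18 with daidzein (adjusted p = 0.691). C3, a bright probe set whose differences quantile normalization compresses, had -0.04 with genistein (95% interval -0.17 to 0.09) and -0.09 with daidzein (-0.22 to 0.04). C5 had -0.25 with each isoflavone, and C9 had -0.16 with genistein and -0.08 with daidzein.

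In the lectin pathway, mannose-binding lectins (Mbl1 and Mbl2) recognise microbial sugars and activate the proteases encoded by Masp1 and Masp2. None of these 4 transcripts was called. Masp1 (1390585_at) stood at 9.03, 8.75, 9.11, 9.23 and 9.22 with genistein, 8.51, 8.73, 8.91, 8.71 and 8.74 with daidzein, and with control from 8.92 to 9.16 with a median of 9.02. Every daidzein array lay below every control array, with daidzein 3 and control 3 almost level. The log2 change was -0.32 ± 0.10 with daidzein against control (SE, limma adjusted p = 0.391) and 0.35 ± 0.10 with genistein against daidzein (adjusted p = 0.215).

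The recognition lectin Mbl2 had log2 changes of -0.13 with genistein and -0.23 with daidzein against control, Mbl1 had 0.01 and 0.00, and the protease Masp2 had 0.16 and 0.08.

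The Masp1 gene gives several proteins by alternative splicing, and its 3 probe sets did not move together. With daidzein the other two had log2 changes of 0.31 and 0.17, and the mean of all 3 probe sets had 0.05 (limma adjusted p = 0.932). Between the isoflavones the 3 ran from -0.17 to 0.35, and their mean had 0.04 (limma adjusted p = 0.955). Among the 6 members with several tested probe sets other than Alb, the probe sets differed in sign for 4 with genistein (Cp, Fga, Fgb and Masp2) and for 4 with daidzein (Cp, Fgb, Masp1 and Masp2) and for 3 between the isoflavones (Cp, Fgb and Masp1), and none of these probe sets was called.

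**Figure D4:**
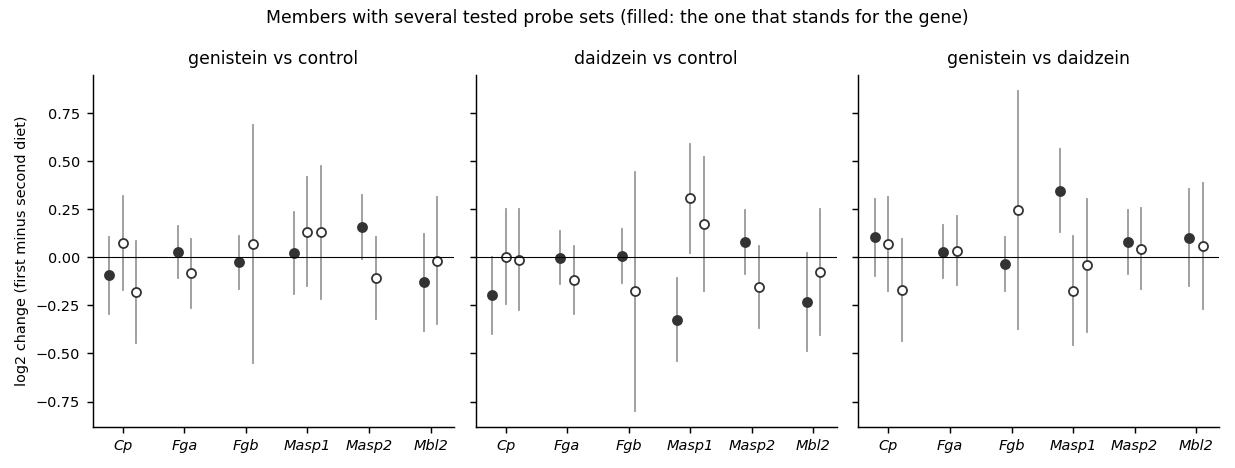
Log2 change (vertical axis) with its 95% confidence interval for every tested probe set of the 6 members with several, in the 3 comparisons; filled points stand for the gene and open points are its other probe sets. The Masp1 probe sets lie on opposite sides of 0 with daidzein (-0.32 against 0.31 and 0.17).

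Among complement regulators, Cd46 encodes membrane cofactor protein, a cofactor for the cleavage of C3b and C4b on host cells, which in rat and mouse is known mainly from sperm. Cd46 (1387610_at) had levels of 4.50, 4.63, 3.46, 4.70 and 4.16 with genistein, 5.21, 5.12, 5.18, 5.17 and 5.42 with daidzein and 5.53, 5.61, 5.31, 5.59 and 5.58 with control. All genistein arrays lay below all daidzein arrays and all control arrays, whereas daidzein 5 lay within the control range. Cd46 and C4bpa were the members whose 5 genistein arrays lay apart from the 5 control arrays, both lower; of all probe sets 1.35% did so lower and 1.21% higher, 2.57% in either direction.

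The Cd46 mean was 4.29 ± 0.51 with genistein and 5.52 ± 0.12 with control (SD, n = 5 each), so that it fell by 1.23 on the log2 scale (SE 0.19, limma adjusted p = 0.0147), or 2.35-fold. The log2 change was -0.31 ± 0.19 with daidzein against control (SE, adjusted p = 0.693) and -0.93 ± 0.19 with genistein against daidzein (SE, adjusted p = 0.0746). The probe set is dim: its mean over all arrays was 5.01 against a filter level of 5.00, its genistein mean lay below that level, and it was tested only because of the other diets. The fold therefore depends on any offset in the intensities. With 16 added to the rebuilt intensities Cd46 was 1.72-fold lower with genistein than with control (limma adjusted p = 0.00655). It was then 1.48-fold lower with genistein than with daidzein (limma adjusted p = 0.0461).

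Cd46 dropped below the filter when any 1 control array or any 1 daidzein array was left out. With the probe sets of the 15-array filter kept, its adjusted p was 0.0513 without control 1 and from 0.0205 to 0.0454 without another control array, from 0.0213 to 0.0282 without a daidzein array and from 0.00428 to 0.0351 without a genistein array. It was 0.0931 when the error was taken from only the 10 arrays compared. The spread of Cd46 was not the same in each diet, with an SD of 0.51 with genistein and 0.12 with control, which the limma fit assumes equal. Without genistein 3, its lowest array, the log2 change against daidzein was -0.72 (limma adjusted p = 0.0382). Without genistein 4, its highest genistein array, it was -1.03 (adjusted p = 0.0221). Over 32 settings this adjusted p ran from 0.0221 to 0.207, with 6 of them under 0.05. Each of these left-out arrays lies at an end of the genistein range, and Cd46 was tested only because of the other diets. The values are therefore a description only.

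C4bpa encodes the alpha chain of C4b-binding protein, a soluble inhibitor of the classical pathway. C4bpa (1369764_at) had levels of 12.40, 12.56, 12.39, 12.55 and 12.34 with genistein, 12.54, 12.78, 12.80, 12.48 and 12.67 with daidzein and 12.83, 12.69, 12.81, 12.68 and 12.68 with control. Genistein arrays lay below all control arrays and overlapped the daidzein arrays. The log2 change of -0.29 ± 0.08 with genistein against control (SE, 1.23-fold lower) was not called (limma adjusted p = 0.154). With daidzein it was -0.09 (adjusted p = 0.801).

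Serping1, which encodes the C1 inhibitor, had log2 changes of -0.04 with genistein and 0.19 with daidzein against control, and -0.23 between the isoflavones (limma adjusted p = 0.465). Cfi, the protease that cleaves C3b and C4b, had 0.09 and -0.02 with genistein and daidzein against control, Cd59, which blocks the membrane attack complex, had 0.15 and 0.06, and the plasma protein vitronectin (Vtn) had -0.08 and 0.02. Over the 6 tested regulators the median change was -0.06 with genistein and -0.00 with daidzein. Cd55, which encodes decay-accelerating factor, ranged from 3.67 to 4.22 with genistein, from 1.72 to 4.59 with daidzein and from 3.11 to 5.13 with control, and was not tested.

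The members whose arrays did not overlap between daidzein and control were Orm1 and Crp, higher, and Masp1, lower, beside 0.94% of all probe sets higher, 0.94% lower and 1.88% in all. Between genistein and daidzein they were Itih4, higher, and Crp and Cd46, lower, beside 0.966% of all probe sets higher, 1.06% lower and 2.03% in all. The counts of such members were 2 of 43 with genistein, 3 of 43 with daidzein and 3 of 43 between the isoflavones, or 4.65%, 6.98% and 6.98%. The counts with genistein and between the isoflavones include Cd46, which passed the filter on low values only through its daidzein and control arrays. These shares are therefore a description only.

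The promoters of Cd46, Lcn2, Orm1 and Crp are shown as examples of members with large or non-overlapping differences. Those of other such members (C6, C4bpa, Masp1 and Itih4) are not shown. Each is the 250 bases before the annotated start, 5′ to 3′ on the gene's strand, from RefSeq on GRCr8. Cd46 lies at chr13:109134770-109135019 on the minus strand, Lcn2 at chr3:36081781-36082030 on the minus strand, Orm1 at chr5:81788259-81788508 on the plus strand and Crp at chr13:87693812-87694061 on the plus strand. Capitals mark matches, on either strand, to the interleukin-6 response element core CTGGGA, the C/EBP pattern TTNNGNAA, the NF-kappaB pattern (GGG, any 5 bases, CC) or the glucocorticoid receptor half-site TGTTCT, all known from acute phase promoters.
Cd46: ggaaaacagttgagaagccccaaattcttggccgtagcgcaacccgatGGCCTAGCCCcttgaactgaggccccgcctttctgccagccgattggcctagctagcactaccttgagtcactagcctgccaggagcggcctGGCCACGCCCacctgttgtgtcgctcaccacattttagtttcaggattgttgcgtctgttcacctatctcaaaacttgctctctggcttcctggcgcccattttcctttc
Lcn2: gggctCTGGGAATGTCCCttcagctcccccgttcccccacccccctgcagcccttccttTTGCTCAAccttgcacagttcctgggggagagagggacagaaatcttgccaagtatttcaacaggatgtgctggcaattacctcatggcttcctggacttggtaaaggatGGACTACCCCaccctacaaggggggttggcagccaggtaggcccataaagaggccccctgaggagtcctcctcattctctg
Orm1: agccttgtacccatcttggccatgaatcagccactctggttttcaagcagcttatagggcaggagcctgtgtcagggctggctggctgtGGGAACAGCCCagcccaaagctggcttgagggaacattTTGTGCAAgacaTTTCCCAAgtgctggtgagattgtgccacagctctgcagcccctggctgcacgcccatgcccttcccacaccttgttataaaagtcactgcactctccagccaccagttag
Crp: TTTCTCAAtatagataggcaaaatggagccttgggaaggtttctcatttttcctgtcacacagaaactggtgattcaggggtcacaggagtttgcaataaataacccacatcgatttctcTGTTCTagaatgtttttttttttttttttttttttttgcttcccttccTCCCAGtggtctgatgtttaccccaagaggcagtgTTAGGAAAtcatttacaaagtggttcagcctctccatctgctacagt

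In the Cd46 window only the NF-kappaB pattern was found, at 2 places on the minus strand. The Lcn2 window held CTGGGA overlapping the NF-kappaB pattern on both strands from 245 to 233 bases before the start, a C/EBP match and a further NF-kappaB match. Orm1 held C/EBP matches from 123 to 116 and from 111 to 104 bases before the start and overlapping NF-kappaB matches on both strands, and Crp held CTGGGA on the minus strand, 2 C/EBP matches and the half-site. Of the 44 measured members, 37 had a promoter in the table. CTGGGA was present in 43.2% of these and in 25.8% of all 27457 promoters, TTNNGNAA in 67.6% and 36.8%, the NF-kappaB pattern in 35.1% and 43.5%, and TGTTCT in 8.11% and 17.1%. These are counts of letters, with no test, and no match says only that the letters are not in this window.

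The 5 coagulation factors F2 (prothrombin), F5 (a cofactor), F9, F10 and F12 (proteases) had log2 changes from -0.15 to 0.09 with genistein and from -0.29 to 0.03 with daidzein, and none was called. With genistein F2 had 0.09, F5 -0.09, F10 0.03 and F12 0.09, and with daidzein they had -0.04, -0.15, -0.03 and 0.03. With genistein relative to daidzein all 5 lay above 0, between 0.06 and 0.15, or 4 of 5 with the own scale factors and median centring. F9, factor IX, had the widest spread of them (within-diet SD 0.26), with levels (1380104_at) of 11.23, 11.18, 11.30, 11.29 and 11.62 with genistein, 11.71, 10.73, 10.99, 11.06 and 11.40 with daidzein and 11.72, 11.24, 11.58, 11.42 and 11.40 with control. The diets overlapped, and its log2 change was -0.15 with genistein (95% interval -0.49 to 0.19) and -0.29 with daidzein (-0.63 to 0.04).

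The anticoagulant and fibrinolytic members were Serpinc1 (antithrombin), Proc (protein C), Plg (plasminogen) and Serpinf2 (the plasmin inhibitor alpha-2-antiplasmin). Their log2 changes lay between -0.07 and 0.13 with genistein and between -0.10 and 0.07 with daidzein, with no call in either comparison. Serpinc1 had 0.13 and 0.07 with genistein and daidzein, Proc -0.00 and -0.10, Plg -0.07 and -0.07, and Serpinf2 -0.04 and -0.01. Between the isoflavones they lay between -0.03 and 0.10.

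After quantile normalization, variation between arrays of the same diet was small for most members. The within-diet SD had a median of 0.0987 over the 43 tested members and was below 0.1 in 22 of them, Alb at 0 included. It exceeded 0.25 in 6, namely Lcn2, A2m, Cd46, Orm1, C6 and F9, and quantile normalization compresses it in the brightest transcripts as said of Alb. With median centring in its place, the control arrays ran from 13.95 to 14.93 for Alb and from 13.07 to 14.03 for Fgg. How much the rats themselves vary in the brightest transcripts therefore depends on the scaling.

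**Figure D5:**
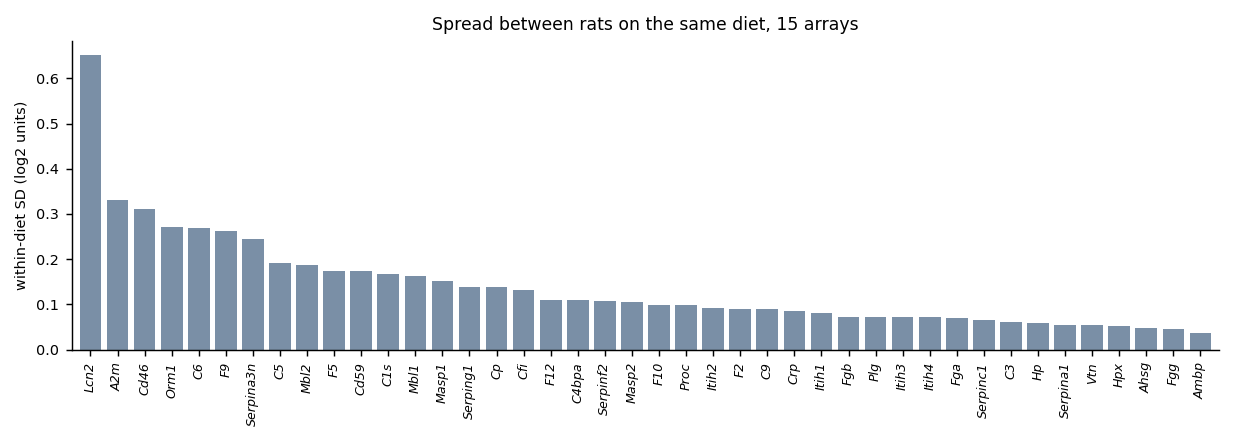
Within-diet SD (log2 units, vertical axis) over 15 arrays after quantile normalization for the tested members other than Alb, from the largest to the smallest. Lcn2 stands at 0.65 and A2m at 0.33, and the median over the 43 tested members is 0.0987.

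Beyond the members, 3 further lists were counted. Of 45 tested genes for other plasma proteins of these systems, 31 for regulators of the acute phase response such as cytokine receptors and their signalling proteins, and 6 of the vitamin K cycle, which coagulation factors need for their gamma-carboxylation, none was called in any comparison. The lowest adjusted p of the plasma protein list was 0.139 with genistein against control, 0.126 with daidzein against control and 0.0569 between the isoflavones. For the regulators these values were 0.124, 0.446 and 0.456. At an unadjusted limma p under 0.05 lay 13.3%, 24.4% and 17.8% of the plasma protein list and 19.4%, 9.68% and 9.68% of the regulators. Over all probe sets these shares were 11%, 8.25% and 9.37%. Above 0 lay 48.9%, 42.2% and 66.7% of the plasma protein list and 77.4%, 67.7% and 74.2% of the regulators, beside 50%, 50.1% and 50.2% of all probe sets. These shares are a description only.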

How the data were processed

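The only values used were those in the table the authors deposited, 31099 probe sets on 15 arrays, and their unit is a score, each array's log signal after standardization. The design had assumed a log2 signal. For probe summary, background correction and scaling, the authors' methods are not stated by the labels. The deposited scale was inferred: after exponentiation with 1 factor per array, 435 of 435 gaps between repeated values were whole steps within 0.001. Scores were multiplied by the common factor of 2.60 log2 units (2.54 to 2.79 by array) and a constant was added. Array medians of the deposited scores spanned 0.00111 to 0.127, over a limit of 0.1, so arrays were quantile normalized. Leaving aside 57 control probe sets, 18625 of 31042 had a mean level in or over the 40th percentile (5.00) and were tested.

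The 3 diets were fitted with limma 3.58.1 (R 4.3.3; lmFit and eBayes, 12 residual and 2.58 prior degrees of freedom), adjusted by Benjamini-Hochberg per comparison, with a threshold of 0.05. SE and intervals come from this fit. Of 31099 probe sets, 20832 had 1 symbol, 436 several and 9831 none. Correlations used 1e+05 two-sided permutations within diets (numpy 2.4.6). The members and lists were chosen with earlier results of these data known. In each comparison the text names members that were called, had the 4 lowest p, the 3 highest or 3 lowest changes, or arrays that did not overlap. It also names the 6 members of largest within-diet SD among those tested, the 5 of highest mean and those of the 6 pairs, and in the other lists called genes and, for plasma proteins and regulators, the 2 of lowest p. Further members appear only within their groups. The fit was tested on simulated data. Same-numbered arrays of different diets were checked for shared deviations: 1 of 15 pairs had a correlation above 0.1 (r from -0.163 to 0.109), so the title numbers, which the descriptions do not share for 9 of 15 arrays, were not taken to pair arrays. With 5 arrays per diet, array number bounds the precision. Alternatives were other scalings, filters, error models, probe set rules and left-out arrays.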

Additional observations from a re-analysis of the deposited data

Results flagged for a closer look

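In 21 named members, each diet's 5 arrays were examined for 1 array far from the other 4, by Dixon's test at its 95% critical value of 0.71. Of 60 combinations of gene and diet tested, 4 had such an array, and chance flags about 1 in 20 groups. Cd46 stood at 5.31 in control 3, while the other controls lay between 5.53 and 5.61. Itih4 stood at 12.95 in daidzein 5, with the others between 13.05 and 13.09. C1s stood at 11.50 in daidzein 5, with the others between 11.12 and 11.22. F9 stood at 11.62 in genistein 5, with the others between 11.18 and 11.30.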

How the results depend on the processing

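The count of members called with genistein against control, 1 in the reported fit, was 0 with a filter at the 60th percentile, with only the 10 arrays compared and without both control 1 and daidzein 5. The last of these and the 10-array fit also gave 0 with the probe sets of the 15-array filter kept, a setting chosen after seeing the data. Leaving out 1 array, those of the diet not compared included after seeing the data, gave counts from 0 to 1 with genistein, 0 throughout with daidzein, and from 0 to 1 between the isoflavones. Between the isoflavones 1 member was called with 16 added to intensities and with array weights (Cd46) and with the 60th percentile filter (Crp). With the replicate number as a block, Cd46 had an adjusted p of 0.0374 with genistein against control, and the count of members called was the same in each comparison. The cause of these differences was not tested, beyond the fewer arrays or probe sets of a setting.

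Medians of the members moved with the scaling. With median centring they were 0.0316 for genistein against control, 0.0538 for daidzein against control and -0.0157 between the isoflavones, and with the scores as deposited 0.0371 for daidzein and -0.034 between the isoflavones. With each array on its own scale factor and median centred, also chosen after seeing the data, they were -0.0747 for genistein and -0.0706 between the isoflavones, and Itih4 turned to -0.0044 between the isoflavones. Medians over all probe sets lay within 0.02 of 0 in these settings. Leaving out 1 array gave medians from -0.0298 to 0.0203 for genistein, -0.0256 to 0.001 for daidzein and 0.0077 to 0.0415 between the isoflavones, and with the 15-array probe sets kept the lowest for genistein was -0.0346. Masp1 turned to 0.0519 with daidzein against control under the mean of its probe sets.

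The correlations of Fga with Fgb, Fga with Fgg and Fgb with Fgg were 0.905, 0.973 and 0.886 with the scores as deposited, 0.946, 0.984 and 0.933 with median centring, and 0.790, 0.961 and 0.739 with own scale factors and median centring. A2m with Serpina3n had 0.0794 and 0.177 in the last pair of settings. With the mean of a gene's probe sets, Fga with Fgb had 0.158 and Fga with Fgg -0.0284. Without control 1 and daidzein 5, Fgb with Fgg had 0.222. Leaving out 1 array gave -0.302 to 0.167 for Fgb with Fgg, -0.253 to 0.0387 for A2m with Serpina3n and -0.242 to 0.281 for A2m with Orm1, while Fga with Fgb ran from -0.504 to -0.0841, Fga with Fgg from 0.324 to 0.566 and A2m with Lcn2 from -0.756 to -0.308. Among values of single members, 7 passed the threshold only under an alternative, all of Cd46 or Crp between the isoflavones, and 3 no longer passed, all of Cd46 with genistein against control. Cd46 and Cd55 lie near or under the filter level, and A2m and the lowest Lcn2 arrays not far above it. At such levels signal over background limits what can be seen.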

Other observations

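Of the plasma proteins and regulators outside the members, those with the lowest p were not called. Cd14 encodes a lipopolysaccharide coreceptor that liver macrophages and hepatocytes make. It had levels of 7.88, 8.18, 8.76, 8.55 and 8.88 with genistein, 9.39, 9.43, 9.40, 9.27 and 9.31 with daidzein and 8.62, 8.24, 8.10, 8.61 and 8.57 with control. All daidzein arrays lay above all arrays of both other diets. The log2 change was 0.93 ± 0.17 with daidzein against control (SE, limma adjusted p = 0.126) and -0.91 ± 0.17 with genistein against daidzein (adjusted p = 0.0569). The 8 measured Kupffer cell and macrophage markers averaged 8.11 to 8.60 on daidzein arrays and 8.45 to 8.79 on control arrays. Serpina3m, a relative of Serpina3n, had levels of 11.34, 11.02, 10.75, 11.41 and 11.01 with genistein, 11.80, 11.95, 11.72, 11.84 and 12.16 with daidzein and 11.93, 11.92, 11.94, 11.97 and 11.01 with control. Its genistein arrays lay below all daidzein arrays (log2 change -0.79, adjusted p = 0.102) and overlapped the controls through control 5 (-0.65, adjusted p = 0.168). Near-identical copies of the Serpina3 family may share signal on such probe sets, which was not tested.

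Socs3 and Socs1 encode feedback inhibitors of cytokine signalling. Socs3 had levels of 5.17, 5.50, 5.59, 5.16 and 5.58 with genistein and 6.02, 5.93, 5.93, 5.64 and 5.74 with control, without overlap (log2 change -0.45 ± 0.12 SE, limma adjusted p = 0.124). Socs1 had a change of 0.51 (adjusted p = 0.190) in the same comparison, of opposite sign to Socs3. Klkb1, which encodes plasma prekallikrein of the contact system, had a change of 0.59 with genistein against control (adjusted p = 0.139). With daidzein against control, Colec11, a collectin of the lectin pathway, had -0.27 (adjusted p = 0.346), and Tyk2, a kinase of cytokine receptors, had -0.21 (adjusted p = 0.446), both with no overlap of arrays. Socs3 had -0.31 with daidzein (adjusted p = 0.503). Between the isoflavones Tyk2 had 0.17 (adjusted p = 0.456) and Foxa3, a hepatocyte transcription factor, -0.28 (adjusted p = 0.494).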
